A study of Mus musculus with 6 samples.

Results

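Genes of neutrophil granules, 10 among the 19938 measured, were examined in blood progenitors of the mouse: Mpo, Elane, Prtn3, Ctsg, Prss57, Ms4a3, Lyz1, Serpinb1a, Camp and Ngp. They were chosen by name, as a set of primary granule genes together with Camp and Ngp of the later granules. Earlier results of these data were known when they were chosen. All 10 are called granule genes here, but not all are known to encode contents of neutrophil granules. The product of Serpinb1a is cytosolic, that of Ms4a3 is a membrane protein, and Lyz1 encodes a lysozyme known from Paneth cells. Each of the 10 had exactly 1 row that names it alone. The cells were LSK CD150- cells, sorted by flow cytometry from bone marrow that had been enriched for cKit. LSK cells lack markers of mature blood lineages, carry Sca-1 and Kit, and hold stem and multipotent progenitor cells. The deleted group was 3 Cebpafl/fl;Mx1Cre mice, and the control group was 3 Cebpafl/fl mice, which the labels call wild-type although both of their Cebpa alleles are floxed. Mice of both genotypes were injected with pIpC, a double-stranded RNA, and taken at day 18, and each mouse had its own Affymetrix Mouse Gene 1.0 ST array. Cre in Mx1Cre mice is driven by the interferon-responsive Mx1 promoter, which acts in many cell types. The controls carried no Cre, so the effects of Cre and of losing Cebpa cannot be told apart. No age of the mice was stated in the labels.

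Neutrophils build their granules in sequence while they mature. Primary (azurophil) granules are made first, in promyelocytes, and are filled with myeloperoxidase and with serine proteases that cathepsin C activates by trimming their ends. Specific and gelatinase granules follow, with antimicrobial proteins such as cathelicidin. C/EBPα, the transcription factor encoded by Cebpa, works with PU.1, Myb and Runx1 at genes of the first wave, and C/EBPε is needed for the later one. Immature progenitors are known to carry low levels of some of these transcripts before they are committed to the granulocyte lineage.

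The deposited values are on the log2 scale, with a median of 6.20 and an upper quartile of 7.53 over all rows and arrays. Array medians lay between 6.16 and 6.20 in deleted mice and between 6.22 and 6.23 in controls, and the highest value of an array was 14.20 to 14.31 in deleted mice, against 14.54 to 14.57 in controls. Cebpa read 6.37, 5.82 and 6.09 in deleted mice, against 7.84, 7.85 and 7.73 in controls, a fall of 3.27-fold (limma adjusted p = 0.000883). Kit, Cd34 and Flt3, which mark these progenitors, read above the upper quartile on all 6 arrays, and Slamf1, which encodes CD150, read at most 4.86 on any array. Ly6a, which encodes Sca-1, was not analysed here. The treatment protocol calls the mice female, whereas on every array Kdm5d and Eif2s3y, genes of the Y chromosome, had values of 8.04 to 8.49, and Xist had values of 4.46 to 5.13. On these rows all 6 arrays read as male, in conflict with the protocol, and this concerns both genotypes alike.

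Of the 10 granule genes, 3 changed after deletion at a limma adjusted p under 0.05: the protease inhibitor gene Serpinb1a rose, and Camp and Lyz1 fell. Over all genes tested, 1.43% passed, 0.702% as higher and 0.732% as lower. The other 7, among them myeloperoxidase and all 4 serine proteases of primary granules, did not pass. The values of the genotypes did not overlap for 8 of the 10, with 6 lower and 2 higher in deleted mice, where over all genes 21.2% did not overlap, 8.68% as lower and 12.5% as higher. The same 8 had an unadjusted p under 0.05, as did 15.9% of all genes, 6.77% as lower and 9.1% as higher; without deleted b or without control a the 8 became 5. The median log2 fold change (deleted minus control) was -0.34 over the 10 and 0.03 over all genes. The calls were fragile: leaving out 1 array at a time left between 0 and 2 granule genes past the threshold, and testing every deposited row in place of 1 row per gene left none. Leaving out 1 array, which sets 2 arrays against 3, also cut the calls over all genes, from 286 to between 53 and 250. An array reads the pooled sorted cells of a mouse, so fewer cells that carry a transcript and less transcript per cell cannot be told apart for any of these genes.

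**Figure D1:**
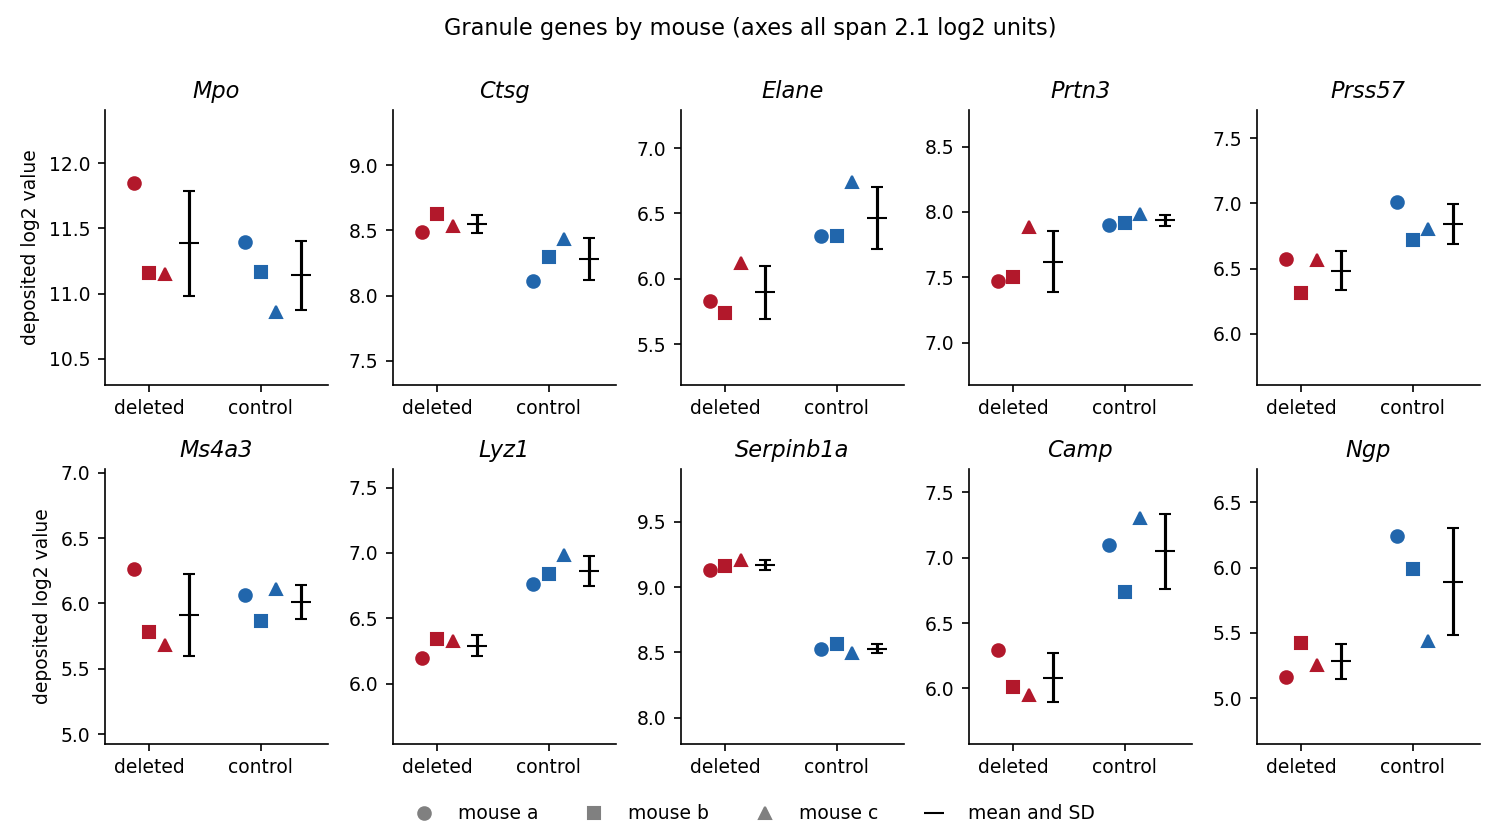
Deposited log2 value of each granule gene in each mouse, deleted mice in red on the left and controls in blue on the right of each panel, with the mean and SD of each genotype beside the points. All panels span the same number of log2 units. The 3 values of a genotype overlap with those of the other only for Mpo and Ms4a3, and Serpinb1a has the tightest points.

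Myeloperoxidase, the haem enzyme that makes hypochlorous acid in primary granules, is encoded by Mpo on chromosome 11 (GRCm38.p6, 87793784 to 87804412). Mpo read 11.85, 11.16 and 11.15 in deleted mice, against 11.39, 11.17 and 10.86 in controls. The genotypes overlapped, and deleted mouse a was the highest of the 6. The means were 11.39 ± 0.40 in deleted mice and 11.14 ± 0.27 in controls (SD, n = 3 each), a log2 fold change of 0.25 ± 0.20 (SE, 95% interval -0.21 to 0.70, limma adjusted p = 0.616). Without deleted mouse a the log2 fold change was 0.01. The interval leaves room for a fall of 1.16-fold and for a rise of 1.62-fold, so a fall of Mpo as large as that of Camp lies outside it.

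Ctsg encodes cathepsin G, a chymotrypsin-like serine protease, and lies on chromosome 14 (56099885 to 56102574). Its values were 8.49, 8.62 and 8.53 in deleted mice, against 8.12, 8.30 and 8.43 in controls. Every deleted mouse was above every control, by 0.26 ± 0.11 on the log2 scale in the mean (SE, 95% interval 0.01 to 0.52), a difference that missed the threshold (limma adjusted p = 0.297).

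The other 3 serine proteases lie close together on chromosome 10. Elane encodes neutrophil elastase (79886312 to 79888216) and Prtn3, 3.14 kb before it, encodes proteinase 3 (79879667 to 79883174). Prss57 encodes a further neutrophil serine protease, NSP4 (79781474 to 79794684). Elane read 5.83, 5.74 and 6.12 in deleted mice, against 6.33, 6.33 and 6.74 in controls. All deleted mice were below all controls, with means of 5.90 ± 0.20 in deleted mice and 6.47 ± 0.24 in controls (SD, n = 3 each). Its log2 fold change was -0.57 ± 0.15 (SE, 95% interval -0.91 to -0.24, limma adjusted p = 0.103). The 3 deleted values lay below the median of all values, 6.20, where signal may not be separated from background.

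Prtn3 read 7.47, 7.51 and 7.89 in deleted mice, against 7.90, 7.92 and 7.99 in controls. Deleted mouse c and control a almost met, and the log2 fold change of -0.31 ± 0.13 did not pass (SE, limma adjusted p = 0.269). Prss57 read 6.57, 6.31 and 6.57 in deleted mice, against 7.01, 6.72 and 6.80 in controls. Its values also stood apart by genotype, with a log2 fold change of -0.36 ± 0.12 (SE, limma adjusted p = 0.193). These 3 neighbours had negative log2 fold changes and Mpo and Ctsg positive ones, and none of the 5 passed the test. Whether the genes of chromosome 10 differ from Mpo and Ctsg in their change was not tested.

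Genes around Elane were read in the same way. Within 200 kb of its start 27 genes were measured, and none of the 24 that are not granule genes passed (limma). Of these, 5 had an unadjusted p under 0.05, as did 15.9% of all genes. Of the 24, 17 had a negative log2 fold change, as did 43.5% of all genes. The values of the 24 ran from -0.35 to 0.73 with a median of -0.07, against 0.03 over all genes. Palm, which overlaps Prss57, had a log2 fold change of 0.32, Ptbp1, an RNA-splicing regulator, one of -0.35 and Cnn2, an actin-binding calponin, one of 0.73 (limma adjusted p = 0.161, 0.274 and 0.0938); these 3 were picked after their values were seen.

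**Figure D2:**
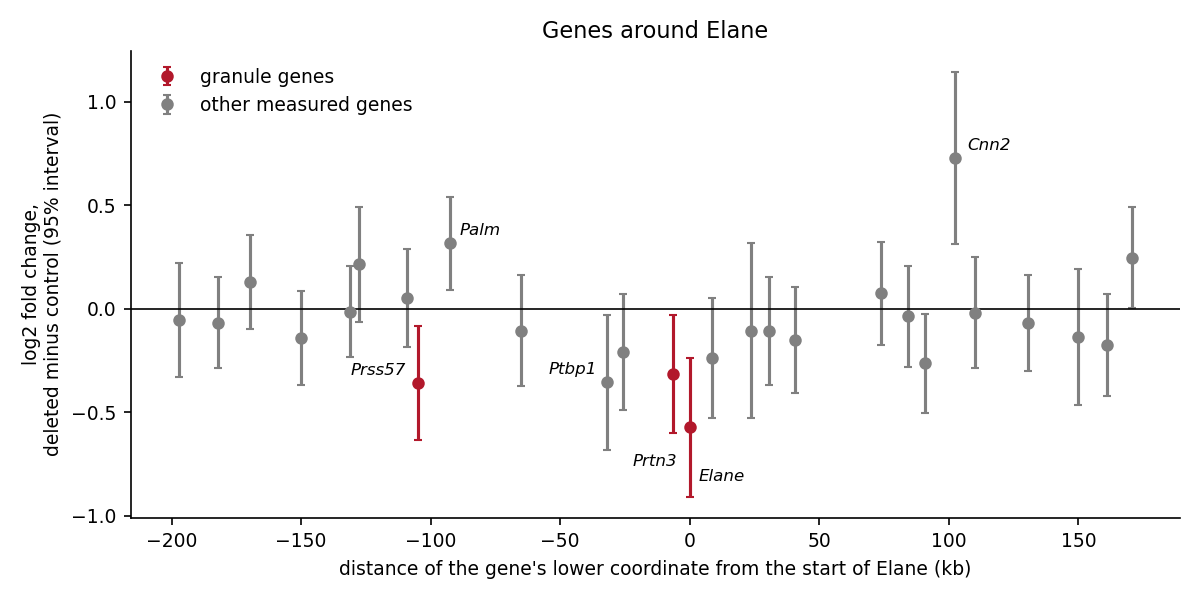
Log2 fold change (deleted minus control) with its 95% interval for the 27 measured genes within 200 kb of Elane, by distance in kb. The granule genes Prss57, Prtn3 and Elane, in red, lie below 0, while the 24 other genes, in grey, scatter on both sides of it, 17 of them below.

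The starts of Elane and Prtn3 are shown because the 2 genes are neighbours, run in the same direction and had negative log2 fold changes. Each sequence holds the 250 bases before the start of the gene and the first 50 of it, on the strand of the gene (RefSeq, GRCm38.p6). Capitals mark the letters of 3 motifs searched on both strands: TTGCNNAA for C/EBP, GAGGAA for PU.1 and AACGG for Myb. The Elane promoter is chr10:79886062-79886361 (+) and that of Prtn3 is chr10:79879417-79879716 (+).
Elane: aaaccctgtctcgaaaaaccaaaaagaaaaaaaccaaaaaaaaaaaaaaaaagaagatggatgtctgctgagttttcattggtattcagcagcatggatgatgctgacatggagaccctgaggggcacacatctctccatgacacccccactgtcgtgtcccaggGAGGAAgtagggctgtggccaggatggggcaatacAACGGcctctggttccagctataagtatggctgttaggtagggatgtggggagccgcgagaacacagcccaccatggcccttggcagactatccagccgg
Prtn3: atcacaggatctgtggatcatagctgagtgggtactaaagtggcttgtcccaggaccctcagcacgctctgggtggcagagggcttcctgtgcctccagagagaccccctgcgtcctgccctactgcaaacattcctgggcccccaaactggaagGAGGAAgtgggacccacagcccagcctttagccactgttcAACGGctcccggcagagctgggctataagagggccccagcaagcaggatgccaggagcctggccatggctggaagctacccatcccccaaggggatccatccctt
Both hold GAGGAA followed by AACGG on the strand of the gene. GAGGAA begins 85 bases before the start in Elane and 95 bases before it in Prtn3, and AACGG begins 35 bases further on in Elane and 40 bases further on in Prtn3. Of 32851 promoters of this length, 28.3% hold GAGGAA, 17.4% hold AACGG and 5.03% hold both. TTGCNNAA was found in neither window, and 10.8% of all promoters hold it. A match of letters is a description and does not show binding. The lack of an exact match does not show that a site is missing. GAGGAA was also found in the promoters of Mpo, Ctsg and Ms4a3, so it was present in 5 of the 8 granule gene promoters that were available. In Ms4a3 it begins after the start, at base 36 of the gene.

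Ms4a3 encodes a membrane protein with 4 crossings that marks granulocyte-monocyte progenitors, on chromosome 19 (11629499 to 11640851). It read 6.27, 5.78 and 5.69 in deleted mice, against 6.07, 5.86 and 6.11 in controls. The genotypes overlapped, and as with Mpo deleted mouse a was the highest of all 6. The log2 fold change was -0.10 ± 0.16 (SE, 95% interval -0.46 to 0.25, limma adjusted p = 0.813), and 5 of the 6 values lay below the median of all values. Without deleted mouse c the log2 fold change was 0.01. None of 14 measured relatives of the Ms4a family passed, with 3 at an unadjusted p under 0.05, as were 15.9% of all genes. Ms4a2, the beta chain of the IgE receptor and the neighbour of Ms4a3, had a change of 0.53 on that scale (adjusted p = 0.180), and the 2 relatives with the smallest p were Ms4a6b (-0.60, adjusted p = 0.104) and Ms4a4d (0.48, adjusted p = 0.142).

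Lyz1 fell in deleted mice. It encodes a lysozyme, an enzyme that cuts bacterial cell walls, of the P type known from Paneth cells of the gut, and lies on chromosome 10 (117287795 to 117292868), far from the elastase cluster. Lyz1 read 6.20, 6.34 and 6.33 in deleted mice, against 6.76, 6.84 and 6.98 in controls. The groups were clearly apart, with means of 6.29 ± 0.08 in deleted mice and 6.86 ± 0.11 in controls (SD, n = 3 each), a fall of 1.49-fold (95% interval 1.26 to 1.75; log2 -0.57 ± 0.11 SE, limma adjusted p = 0.0374). Deleted mouse a was just below the overall median of 6.20 and the other deleted mice were near it, where signal may not be separated from background. The call was lost whichever of the 6 arrays was left out, with adjusted p-values from 0.0697 to 0.110.

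Lyz2, the lysozyme of macrophages and neutrophils, lies 5.52 kb from Lyz1 and is a near-identical copy, so probes may read both. Lyz2 read 7.92, 8.19 and 8.20 in deleted mice, against 8.46, 8.39 and 8.63 in controls, again without overlap. Its log2 fold change was -0.39 ± 0.12 (SE, limma adjusted p = 0.158). Which of the lysozyme transcripts the Lyz1 row read in these cells was not tested.

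Serpinb1a rose in deleted mice. It encodes a cytosolic serpin, the mouse counterpart of human SERPINB1, which inhibits elastase, proteinase 3 and cathepsin G, and lies on chromosome 13 (32842092 to 32853206). Serpinb1a read 9.13, 9.16 and 9.21 in deleted mice, against 8.53, 8.57 and 8.49 in controls. The gap between the genotypes was many times the spread within either, with means of 9.17 ± 0.04 in deleted mice and 8.53 ± 0.04 in controls (SD, n = 3 each). The rise was 1.56-fold (95% interval 1.34 to 1.80; log2 0.64 ± 0.10 SE, limma adjusted p = 0.0151). The call was lost without deleted b, deleted c, control a or control b, with an adjusted p of up to 0.0664, while the log2 fold change stayed between 0.62 and 0.66. Its relatives Serpinb1b and Serpinb1c both differed by 0.12 on the log2 scale (adjusted p = 0.718 and 0.772) and read at most 4.43 on any array.

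Camp fell most of the 10 in the fitted values. It encodes cathelicidin, stored in specific granules as a precursor that proteases of primary granules cut in humans, and lies on chromosome 9 (109847377 to 109849456). Camp read 6.29, 6.01 and 5.95 in deleted mice, against 7.10, 6.74 and 7.31 in controls. No deleted mouse reached the lowest control, control b, and the means were 6.08 ± 0.18 in deleted mice and 7.05 ± 0.29 in controls (SD, n = 3 each). The fall was 1.95-fold (95% interval 1.53 to 2.50; log2 -0.97 ± 0.16 SE, limma adjusted p = 0.0230). In deleted mice b and c Camp was dimmer than the overall median of 6.20, where signal may not be separated from background. The call was lost without deleted b, deleted c, control a or control c, with an adjusted p of up to 0.0915.

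Ngp encodes a neutrophilic granule protein related to the cathelicidins and lies on the same chromosome as Camp (110419808 to 110423012). Ngp read 5.16, 5.42 and 5.26 in deleted mice, against 6.24, 5.99 and 5.44 in controls. Deleted mouse b and control c almost met, and 5 of the 6 values lay below the median of all values. The log2 fold change was -0.61 ± 0.19 (SE, limma adjusted p = 0.152). Without control c, the lowest control, it was -0.83 and passed (adjusted p = 0.0345). Camp and Ngp entered the list as the brighter genes of later granules, but only Camp read above 6.20 in all controls.

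**Figure D3:**
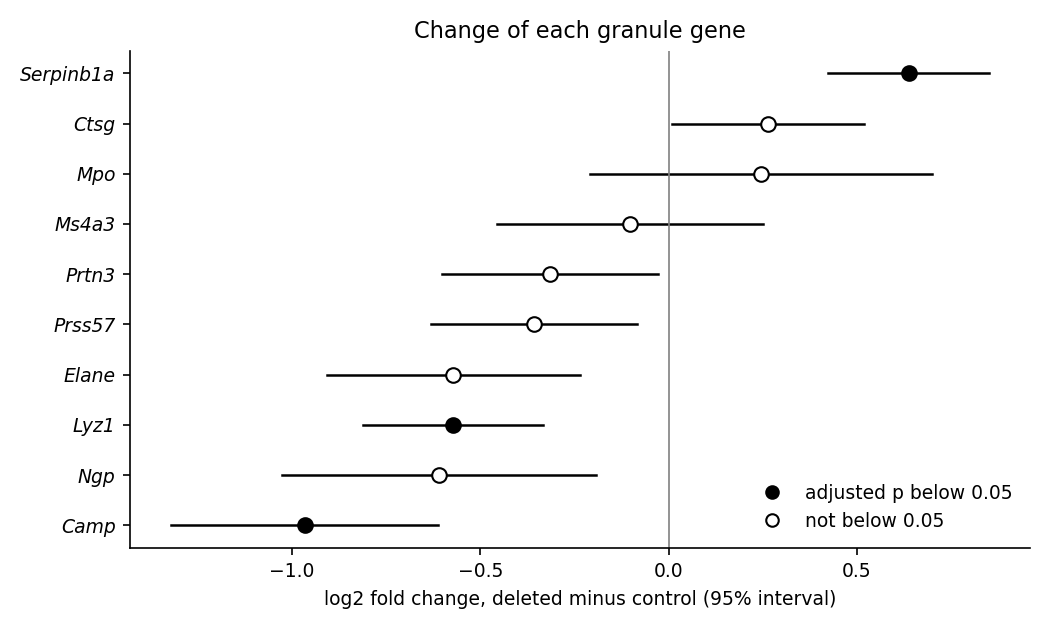
Log2 fold change (deleted minus control) of the 10 granule genes with the 95% interval from limma, ordered from the highest to the lowest. Filled points passed an adjusted p of 0.05 over all genes. Serpinb1a stands at the top and Camp at the bottom, and the intervals of Mpo and Ms4a3 include 0.

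The promoters of Lyz1, Camp and Ngp are shown since Camp and Lyz1 fell and Ngp, like Camp, belongs to the later granules. Those of Serpinb1a and Prss57 are not shown. The windows of Lyz1, Camp and Ngp are chr10:117292819-117293118 (-), chr9:109849407-109849706 (-) and chr9:110419558-110419857 (+), in the same build, with the same motifs in capitals.
Lyz1: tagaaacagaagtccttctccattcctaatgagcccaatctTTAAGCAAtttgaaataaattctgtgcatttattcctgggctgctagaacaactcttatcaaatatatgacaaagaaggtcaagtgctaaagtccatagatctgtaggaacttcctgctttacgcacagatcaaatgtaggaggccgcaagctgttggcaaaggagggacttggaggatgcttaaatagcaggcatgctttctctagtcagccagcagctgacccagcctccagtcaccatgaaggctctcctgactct
Camp: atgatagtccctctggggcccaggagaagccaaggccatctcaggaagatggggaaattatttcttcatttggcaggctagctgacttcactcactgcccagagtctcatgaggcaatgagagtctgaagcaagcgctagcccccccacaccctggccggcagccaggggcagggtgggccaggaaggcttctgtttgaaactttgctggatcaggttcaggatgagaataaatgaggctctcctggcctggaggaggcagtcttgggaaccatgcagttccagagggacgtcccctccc
Ngp: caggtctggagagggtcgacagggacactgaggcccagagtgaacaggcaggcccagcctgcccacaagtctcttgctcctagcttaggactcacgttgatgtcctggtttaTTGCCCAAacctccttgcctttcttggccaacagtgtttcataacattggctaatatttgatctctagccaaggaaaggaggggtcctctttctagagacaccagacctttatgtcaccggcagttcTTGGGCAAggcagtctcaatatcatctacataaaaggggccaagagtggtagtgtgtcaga
Lyz1 has 1 match to TTGCNNAA, on the opposite strand and beginning 209 bases before the start, and Ngp has 2, beginning 138 bases before it on the strand of the gene and 11 bases before it on the opposite strand. Matches on the opposite strand are printed as TTNNGCAA. The Camp window has no exact match to any of the 3 motifs, which does not show that it lacks such sites. Of the 8 granule gene promoters, 3 hold TTGCNNAA. The remaining one is that of Ms4a3, where the match begins after the start, at base 42 of the gene. The Ms4a3 values overlapped between genotypes.

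Genes that work with these proteins were read in 6 lists. Of 19 measured partners in primary granules and lysosomes, Mgst1, a membrane glutathione transferase, fell by 0.74 on the log2 scale (adjusted p = 0.0215) and none rose, with a list median of -0.06. Over all genes, 1.43% passed. Of the 19, 6 had an unadjusted p under 0.05, as did 15.9% of all genes. Besides Mgst1, these were Arsb (-0.51), Lyz2 (-0.39), Hexa (-0.37) and, in the other direction, Ctsc (0.51) and Plac8 (0.26). Their limma adjusted p-values were 0.0663, 0.158, 0.201, 0.133 and 0.217. Ctsc, whose product cathepsin C activates the serine proteases, read 9.05, 8.80 and 9.11 in deleted mice, against 8.23, 8.45 and 8.75 in controls. All deleted mice were higher, but its log2 fold change of 0.51 ± 0.15 did not pass (SE, limma adjusted p = 0.133). For Srgn, the proteoglycan that packs granule proteins, the log2 fold change was 0.15 (adjusted p = 0.530).

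Of 13 measured inhibitors of proteases, Cst7 and Spint1 rose and none fell, with a list median of 0.12. Cst7 encodes cystatin F, which inhibits cathepsin C, and it read 10.82, 10.54 and 10.16 in deleted mice, against 8.43, 8.23 and 8.51 in controls. The log2 fold change was 2.11 ± 0.16 (SE, limma adjusted p = 0.000744), and the call held whichever array was left out. Spint1, an inhibitor of trypsin-like serine proteases at cell surfaces, rose by 0.73 (adjusted p = 0.0111, or 0.0542 without control b). The change of Slpi, a secreted inhibitor of elastase, was 0.09 (adjusted p = 0.779). A median of 0.03 over all genes stands beside these list medians.

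Of 18 measured genes of specific and gelatinase granules and of neutrophils that make them, S100a8, S100a9 and Cyba fell and none rose, with a list median of -0.19. S100a8 and S100a9 encode calcium-binding proteins of the neutrophil cytosol and had log2 fold changes of -3.51 and -3.37 (limma adjusted p = 2.25e-06 and 3.04e-05). Cyba, the small membrane subunit of the NADPH oxidase, fell by 0.88 (adjusted p = 0.0334) and, of the fits with an array left out, kept its call only in that without control a. The granule proteins Ltf (-0.19), Lcn2 (-0.25) and Mmp9 (-0.03) did not pass (adjusted p = 0.506, 0.360 and 0.931) and read at most 5.61 on any array. Of the 18, 7 had an unadjusted p under 0.05, as did 15.9% of all genes. Besides the 3 that passed, these were Pglyrp1 (-0.58), Chil3 (-0.44), Hp (-0.39) and, in the other direction, Itgam (0.41). Their limma adjusted p-values were 0.115, 0.239, 0.256 and 0.146. Pglyrp1 was brighter, with means of 7.62 in deleted mice and 8.20 in controls.

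Among 15 measured regulators of granule genes, Cebpd and Cebpg rose and Cebpa and Csf3r (which encodes the G-CSF receptor) fell. Cebpd read 7.10, 7.20 and 7.25 in deleted mice, against 6.62, 6.60 and 6.68 in controls. Cebpg read 10.31, 10.19 and 10.42 in deleted mice, against 9.71, 9.39 and 9.63 in controls. Both were higher in every deleted mouse, with log2 fold changes of 0.55 and 0.73 (adjusted p = 0.0336 and 0.0240). Cebpb was also higher in every deleted mouse, but its log2 fold change of 0.70 did not pass (limma adjusted p = 0.0909). Of the 15, 7 had an unadjusted p under 0.05, as did 15.9% of all genes. Csf3r fell by 1.09 on the log2 scale (adjusted p = 0.0376), and the change of Cebpe was 0.02 (adjusted p = 0.954). Of the other factors that act at primary granule genes, Spi1, which encodes PU.1, had a log2 fold change of 0.30, Myb one of -0.10 and Runx1 one of -0.03 (adjusted p = 0.274, 0.722 and 0.952).

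Serine proteases of other granules gave 1 call in 14 measured genes, where 1.43% of all genes passed. Gzmb, a protease of cytotoxic cells from the same protease family as Ctsg, read 9.24, 7.18 and 7.42 in deleted mice, against 5.74, 5.83 and 5.67 in controls. It rose by 2.20 on the log2 scale (adjusted p = 0.0438), with deleted mouse a far above the other deleted mice. Of the 14, 3 had an unadjusted p under 0.05, as did 15.9% of all genes. Besides Gzmb, these were Gzmc (0.97) and, in the other direction, Cma1 (-0.45), which did not pass (limma adjusted p = 0.151 and 0.0870). Gzmc and Cma1 read at most 5.78 on any array. Mcpt8 and Gzme, the measured genes on either side of Ctsg, had log2 fold changes of 0.09 and 0.04 (adjusted p = 0.840 and 0.942). Of all 18 genes that lie next to a granule gene and are no granule gene themselves, none passed (limma). An unadjusted p under 0.05 was found for 5 of the 18, and for 15.9% of all genes. The median log2 fold change of the 18 was -0.03.

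Leaving out 1 array ended several calls in these lists: Mgst1 was lost without deleted b, deleted c, control a or control b (adjusted p up to 0.0840), Cyba up to 0.101, Cebpd whichever array was left out (up to 0.120), Cebpg without control b or any deleted array (up to 0.0881), and Csf3r and Gzmb unless that array was deleted a (up to 0.130 and 0.124). Testing every deposited row ended all the calls of these lists except those of S100a8 and S100a9, and a robust prior ended that of Gzmb.

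**Figure D4:**
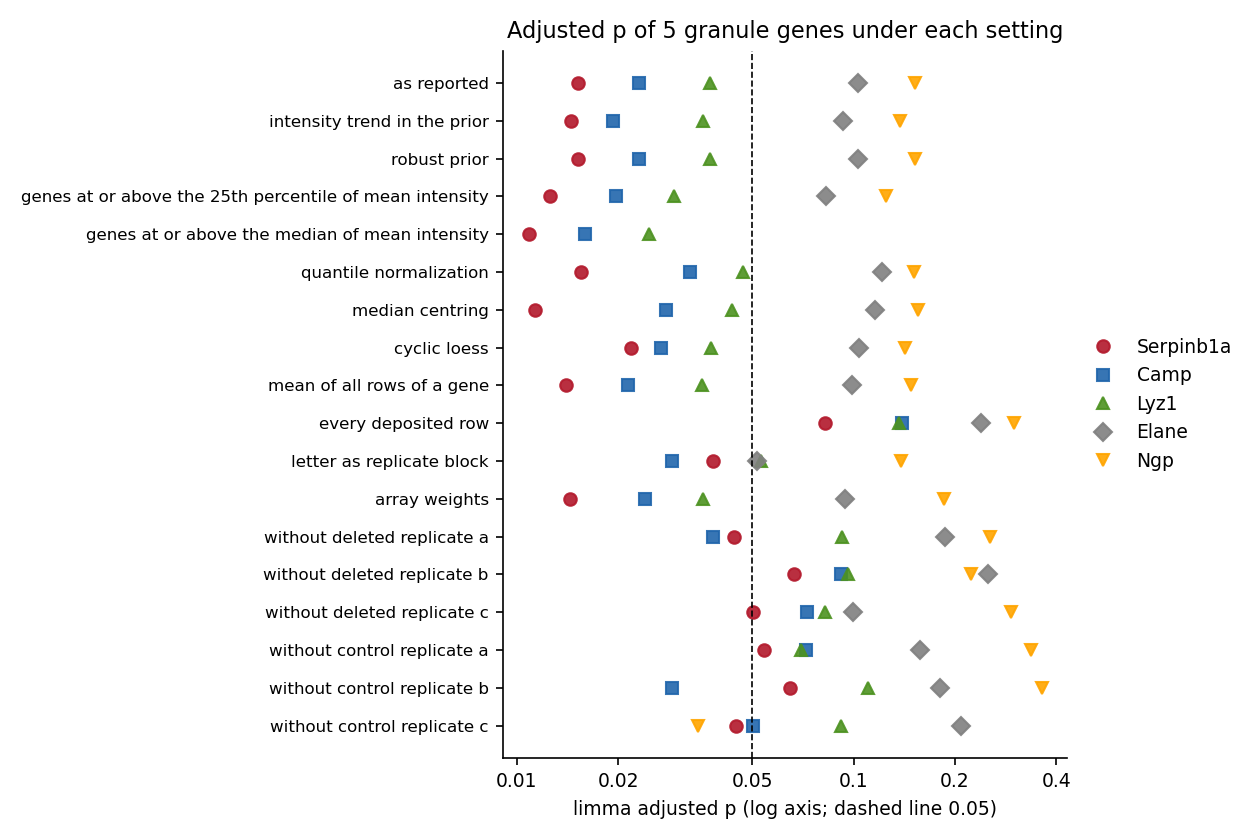
Limma adjusted p (log axis) of 5 granule genes as reported and under each alternative, with a dashed line at 0.05. Serpinb1a, Camp and Lyz1 lie left of the line as reported and right of it when every deposited row is tested, Lyz1 lies right of it whenever an array is left out, and Ngp lies left of it only without control c.

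**Figure D5:**
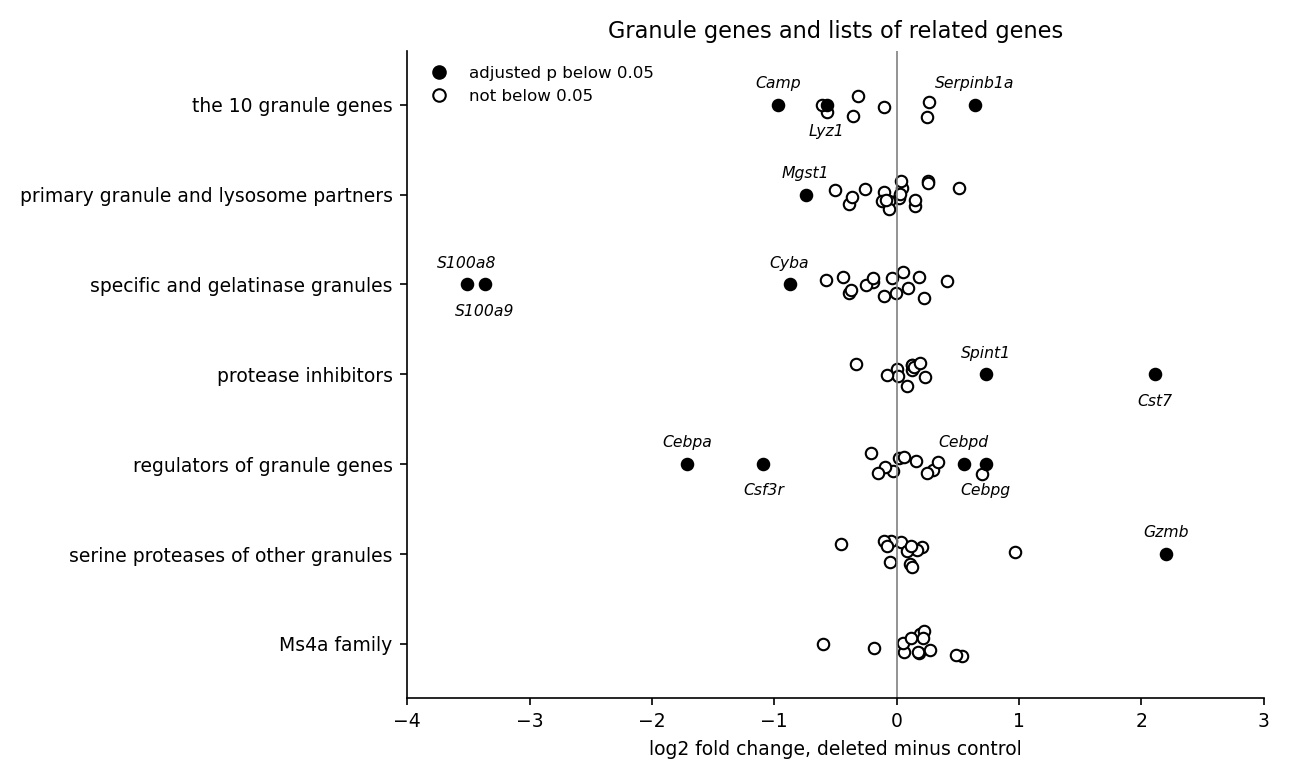
Log2 fold change (deleted minus control) of the 10 granule genes and of each measured gene in the 6 lists of related genes, 1 point per gene, with vertical scatter for legibility only. Filled and named points passed a limma adjusted p of 0.05. S100a8 and S100a9 lie farthest to the left and Gzmb and Cst7 farthest to the right, outside the range of the granule genes.

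Markers of cells that the sort could hold were set beside the granule genes. The summed level (the values turned back from log2 and added) of 10 mature neutrophil markers was 407 to 432 in deleted mice, against 1149 to 1350 in controls, and 2 of the 10, S100a8 and S100a9, fell. The other 8 summed to 331 to 335 in deleted mice, against 322 to 340 in controls, and none of them passed (limma; 1 at an unadjusted p under 0.05). Of the 10 markers, 6 read below the median of all values on all arrays. For 6 markers of granulocyte-monocyte progenitors the sum was 687 to 723 in deleted mice, against 821 to 859 in controls, with Cd68 lower by 0.90 on the log2 scale (limma adjusted p = 0.00520). Without Cd68 the other 5 summed to 551 to 590 in deleted mice, against 574 to 603 in controls, and none of them passed (1 at an unadjusted p under 0.05). For 7 markers of mast cells, basophils and eosinophils it was 2721 to 3436 in deleted mice, against 498 to 568 in controls, with Cpa3 higher. Without Cpa3 the other 6 summed to 282 to 309 in deleted mice, against 258 to 315 in controls, and none of them passed (1 at an unadjusted p under 0.05). The 6 measured markers of the sorted progenitors themselves summed to 5630 to 6340 in deleted mice, against 6703 to 7583 in controls. Of these 6, Kit, Flt3 and Meis1 fell, with log2 fold changes of -0.75, -0.71 and -0.89 (limma adjusted p = 0.0270, 0.0469 and 0.0117). Cd34 (-0.27) did not pass (limma adjusted p = 0.232). Sox4 (0.52) and Ly6e (0.26) went the other way, also without passing (limma adjusted p = 0.157 and 0.521). With 1 array left out, the call of Kit was lost in all cases but deleted a (adjusted p up to 0.101), that of Flt3 in all but deleted c (up to 0.145), and that of Meis1 without deleted b or control b (up to 0.0554). The call of Flt3 was also lost under each of the 3 other normalizations, and all 3 were lost when every deposited row was tested. The part of these marker lists in the changes of the granule genes was not tested.

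A mean profile of the primary granule enzymes was used to find genes with a like pattern. The mean of the centred values of Mpo, Elane, Prtn3, Ctsg and Prss57 was -0.02, -0.19 and -0.01 in deleted mice, against 0.09, 0.03 and 0.10 in controls. It averages genes with log2 fold changes of both signs. Pearson's r with this mean was 0.85 for Elane, 0.77 for Prtn3 and 0.92 for Prss57, but -0.13 for Mpo and -0.72 for Ctsg. Among 2242 genes that were bright and variable enough, the 5 most like this mean were Atf7 (Pearson's r = 0.989 over the 6 arrays), Gabpb2 (0.989), Wee1 (0.979), Tmem86b (0.972) and Dpagt1 (0.968). With 6 arrays and so many genes compared, such a likeness is a description only.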

How the data were processed

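Total RNA of sorted cells (20 ng) was amplified and hybridised, 1 mouse per array, per the labels' protocols. The authors deposited their values on the log2 scale. Per the submitters' processing notes, the tools were RMA and Affymetrix Expression Console 1.1.2, with no settings stated. Values were used as deposited. Of 35556 rows, 21789 name 1 gene in the platform annotation, and the brightest row of a gene was kept, which gave 19938 genes. No detection calls were used. Precision is limited by having 3 arrays per genotype.

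Genotypes came from the sample titles and the comparison used lmFit and eBayes of limma 3.58.1 (R 4.3.3; no trend or block). Tests were two-sided; a gene passed at p under 0.05 after Benjamini-Hochberg adjustment across the 19938 genes; errors are moderated standard errors. An exact permutation test of 3 against 3 cannot go below p = 0.1, which the 8 granule genes without overlap reached. The script was tested on simulated data. Positions, neighbours and promoters are from RefSeq GRCm38.p6; 8 of the 10 promoters matched.

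The granule genes and the lists were chosen with earlier results of these data known. All 10 granule genes are named; of each list, every gene that passed, and otherwise the 2 with the smallest p; a few others were picked for their role after values were seen. The like genes needed a mean at or above the median mean and an SD of at least 0.25. Alternatives were a trend or robust prior, intensity filters, other normalizations, other row choices, the letters as a block, array weights and leaving out each array.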

Additional observations from a re-analysis of the deposited data

How the results depend on the processing

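The sign of the log2 fold change held under every alternative for 9 of the 10 granule genes; that of Ms4a3 lay between -0.28 and 0.01 when 1 array was left out, and was 0.0096 without deleted c. The 3 calls were kept under a trend or robust prior, both intensity filters, array weights, row averaging per gene, and normalization by quantiles, medians or cyclic loess. With every deposited row tested, 0 of 10 granule genes passed (limma; 6 at an unadjusted p under 0.05, against 8 as reported, 7 under each of the other normalizations and 5 to 7 with 1 array left out), at unchanged log2 fold changes of -0.97 for Camp, -0.57 for Lyz1 and 0.64 for Serpinb1a, and 13 of all 35556 rows did; the cause was not tested. With the letters as a replicate block, 2 granule genes passed and Lyz1 (-0.57, adjusted p = 0.0532) did not. Deviations of same-letter arrays correlated at -0.04 to 0.06 and those of other-letter arrays at -0.10 to 0.11. With 3 arrays per genotype, such values cannot decide whether the letters pair the mice. Of the related genes, Cebpd also lost its call with the block. Leaving out 1 array gave 0 to 2 granule genes and 53 to 250 of all genes, against 286 with all arrays, and 438 genes passed in the brighter part of the genes, split at the median. Over these fits of fewer samples the log2 fold change lay between 0.62 and 0.66 for Serpinb1a, -1.12 and -0.84 for Camp, -0.62 and -0.51 for Lyz1, and -0.83 and -0.43 for Ngp, which passed without control c. Of all genes called, 49.0% were higher with the deposited values, 61.6% after quantile normalization and 65.8% after median centring. Elane, Ngp and Ms4a3 lie below the median intensity and have no value in that brighter part. The plot of adjusted p by setting shows these shifts. Rows near or below the median of all values (Elane, Ngp and Ms4a3, and Camp and Lyz1 in deleted mice) are limited by signal over background.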
